A study of Mus musculus with 10 samples.

Results

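Livers of 10 female mouse fetuses at E18.5, shortly before birth, were profiled by RNA-seq to ask how loss of the microRNA gene Mir483 alters the fetal liver transcriptome. In 5 fetuses (Mir483Pat-KO) Mir483 was deleted on the allele inherited from the father, in every cell of the body, and 5 WT littermates carried both alleles intact. The knockout line came from targeted embryonic stem cells in which Cre removed the selection cassette, and each library was made from the liver of 1 fetus. Described here are 10 glutathione S-transferase genes, chosen by symbol from 55401 rows of the count table: Gsta1, Gsta2, Gsta3, Gsta4, Gstm1, Gstm2, Gstm3, Gstp1, Gstt1 and Gstt2. All 10 were found in the table. Of these, 8 had enough counts to be tested, whereas Gsta1 and Gsta2 did not.

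Glutathione S-transferases join the tripeptide glutathione to electrophilic compounds, which makes drugs, toxins and products of lipid peroxidation soluble and ready for export. The soluble enzymes fall into classes named by Greek letters, and the 4 classes described here are alpha (Gsta genes), mu (Gstm genes), pi (Gstp1) and theta (Gstt genes). Liver is the organ best known for them, and several mouse genes of the family are inducible through the transcription factor NRF2 or through the xenobiotic receptors CAR and PXR. The related Mgst genes encode membrane-bound transferases.

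Library totals ranged from 10831350 to 14765880 counts, of which the 10 genes took 0.084% to 0.099%. Levels are given as CPM, counts per 1000000 counts of a library after TMM scaling, and a floor of 3 counts corresponds to 0.197 to 0.271 CPM, depending on the library. The deleted gene was checked first. Mir483 had 11, 10, 22, 21 and 12 counts in WT and 0 counts in each of the 5 Mir483Pat-KO libraries, as the labels say. Identification numbers in the labels fell into a lower range, with 4 WT and 2 Mir483Pat-KO libraries, and an upper range, with 1 WT and 3 Mir483Pat-KO libraries, and what a range stands for is not stated. WT libraries carried indexes 53 to 57 and Mir483Pat-KO libraries 60 to 64, so index order and genotype cannot be told apart. Hepatocyte markers (Alb, Ttr, Apoa1 and 4 others) were high in every library, with a summed level of at least 196651 CPM, which fits the tissue label.

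The 10 genes lie in 4 clusters of like genes and in 1 place alone, and their sequences decide how well 50-base reads tell them apart. In the annotation (GENCODE, GRCm38), Gsta1 spans 78230656 to 78242684 on the plus strand of chromosome 9. Its neighbours there are Gsta4 (78182774 to 78209349, plus strand) and Gsta2 (78331018 to 78355788, minus strand). Gsta3 stands apart on chromosome 1 (21240589 to 21265661, plus strand). The mu genes Gstm3 (107963696 to 107969283), Gstm2 (107981702 to 107986453) and Gstm1 (108012255 to 108017973) follow one another on the minus strand of chromosome 3. Gstp1 lies on chromosome 19 (4035407 to 4037985, minus strand), and Gstt1 (75783813 to 75798584) and Gstt2 (75831114 to 75837424) lie on the minus strand of chromosome 10. All 10 are protein-coding, and no exonic base of theirs overlaps an exon of another gene on either strand.

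The first 50 coding bases of the alpha genes, the length of 1 read, are shown because some members cannot be told apart in this stretch. They were read from GENCODE transcripts (GRCm38) and lie in the first coding exon, and capitals mark bases that differ from Gsta1. Gm3776 is a protein-coding gene next to Gsta1. The stretches lie at chr9:78232240-78232289 on the plus strand (Gsta1), chr9:78258712-78258761 on the plus strand (Gm3776), chr9:78341867-78341916 on the minus strand (Gsta2), chr1:21249772-21249821 on the plus strand (Gsta3) and chr9:78198290-78198339 on the plus strand (Gsta4).
Gsta1: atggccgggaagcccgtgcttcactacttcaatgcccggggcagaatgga
Gm3776: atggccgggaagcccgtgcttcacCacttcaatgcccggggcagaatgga
Gsta2: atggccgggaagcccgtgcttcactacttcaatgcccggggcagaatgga
Gsta3: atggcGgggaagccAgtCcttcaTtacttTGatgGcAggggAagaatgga
Gsta4: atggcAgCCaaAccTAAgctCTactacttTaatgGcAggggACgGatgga

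Gsta1 and Gsta2 did not differ in this stretch, Gm3776 differed from Gsta1 at 1 base, Gsta3 at 9 bases and Gsta4 at 15 bases. Over the whole coding sequence, Gsta1 was 99.7% identical to Gm3776, 97.6% to Gsta2, 74.2% to Gsta3 and 66.6% to Gsta4. Of all 50-base windows in 1 coding transcript per gene, 89.7% of those of Gsta1 and 64.2% of those of Gsta2 also occurred in a transcript of another gene. No window of Gsta3, Gsta4 or Gstt1 did, and 0.726% of the windows of Gstt2 did. The transcript searched for Gsta3 held 1457 of the 4344 exonic bases of the gene, and exons outside the chosen transcripts were not searched. Values of Gsta1 and Gsta2 depend on how reads with several matches were counted, which is not stated.

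Gstp1 has a near copy as well. The first 50 coding bases are shown with capitals marking bases of Gstp2 that differ from Gstp1. They span 3 coding exons, with outer ends at chr19:4037384-4037863 (Gstp1) and chr19:4041678-4042165 (Gstp2), both on the minus strand.
Gstp1: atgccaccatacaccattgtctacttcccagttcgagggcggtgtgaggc
Gstp2: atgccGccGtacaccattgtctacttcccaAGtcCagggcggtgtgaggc

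The coding sequences of this pair were 98.1% identical, and 62.3% of the Gstp1 windows also occurred in Gstp2. Gstp2 itself had 3 to 10 counts per library, so the deposited Gstp1 value is uncertain by the share of its reads that the counting could not assign. The mu genes shared fewer windows with other genes and pseudogenes, namely 23.1% for Gstm1, 9.36% for Gstm2 and 28.8% for Gstm3. Their coding sequences were 89.4% (Gstm1 and Gstm3), 85.9% (Gstm1 and Gstm2) and 85.0% (Gstm2 and Gstm3) identical.

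Levels of different genes were compared per length, as transcripts per 1000000 (TPM), in WT, with the union of annotated exons as the length. By this length Gstt1 had the highest mean of the 10 genes at 360 ± 26.6 TPM (SD, n = 5). Gsta3 followed at 315 ± 16.8 TPM and Gstm1 at 287 ± 10.97 TPM. The ranges over WT libraries of Gstt1 and Gsta3 overlapped, as did those of Gsta3 and Gstm1, so that this order is not firm. Gstp1 came next at 121 ± 5.10 TPM, below all WT values of Gstm1 and above all of Gsta4, which stood at 34.2 ± 5.55 TPM. Gstt2 (20.6 ± 2.25 TPM) and Gstm2 (18.8 ± 4.203 TPM) overlapped one another and lay below Gsta4. Gstm3 had 6.18 ± 1.01 TPM. Together Gstt1, Gsta3 and Gstm1 made up 30.9%, 27.1% and 24.7% of the summed TPM of the 10 genes in WT. When the longest transcript was taken as the length instead of all exons, Gsta3 had 391 TPM and Gstt1 396 TPM. Gstp1 then had 181 TPM, so levels per length, their order and the shares depend on the transcript assumed. Gsta3 has 4344 exonic bases, 2792 in its longest transcript and 1457 in the coding transcript searched above. For Gstt1 these lengths are 1528, 1105 and 1105. Levels were not computed over the coding transcripts, which would raise Gsta3 relative to Gstt1.

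**Figure D1:**
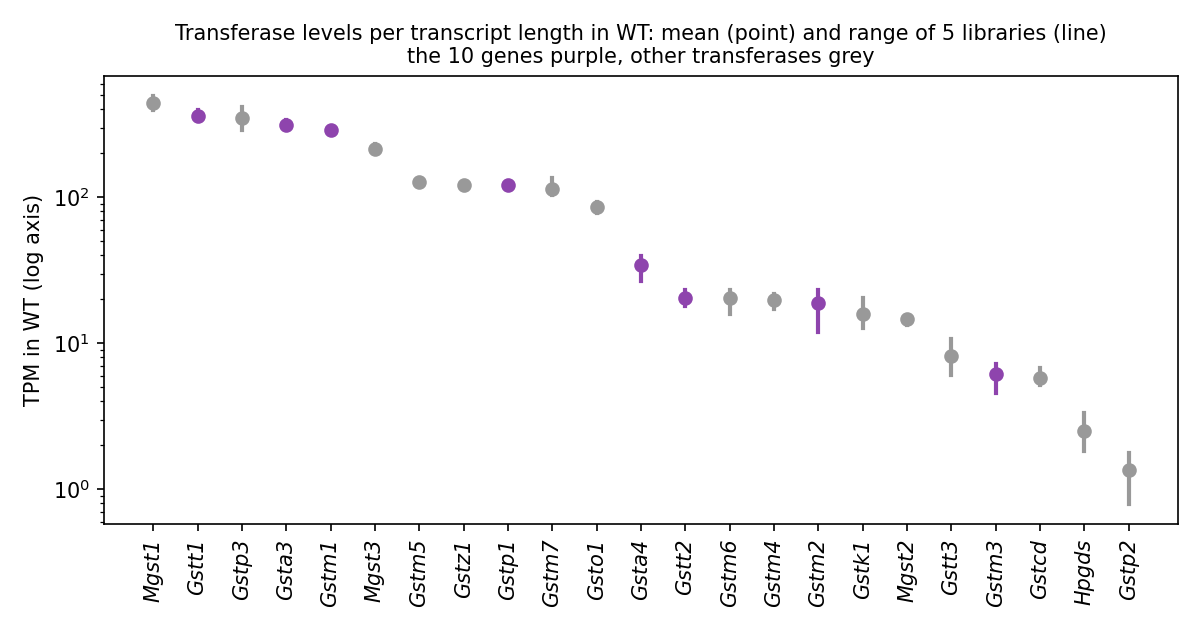
TPM of transferase genes in the 5 WT libraries on a log axis, with the mean as a point and the range over libraries as a line, the 10 genes in purple and other transferases in grey. Gstt1, Gsta3 and Gstm1 lie between 275 and 400 TPM, whereas Gsta4, Gstt2, Gstm2 and Gstm3 lie below 40 TPM; Gsta1 and Gsta2 are not drawn because their WT means were under 1 TPM.

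Across genotypes, Gsta4 was lower in Mir483Pat-KO livers and was the only 1 of the 8 tested genes to pass an adjusted p under 0.05. None was called by the stricter rule of an adjusted p under 0.05 with a fold change over 1.5. In all, 6 of the 8 log2 fold changes were negative and 2 positive, with a median of -0.04 against 0.00 for all genes tested. Among all 14098 genes tested, 2.76% passed and were lower in Mir483Pat-KO, 2.43% passed and were higher, 5.19% passed in either direction, and 1.23% were called with the fold rule. A single gene of 8 is too few to set apart from these shares. At an unadjusted p under 0.05, 3 of the 8 differed in edgeR, beside 22.2% of all genes. DESeq2 and limma-voom also called none with the fold rule. For 0 of the 8 genes did the genotypes not overlap at all, beside 3.26% of all genes with every Mir483Pat-KO library below WT and 3.34% with every one above.

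**Figure D2:**
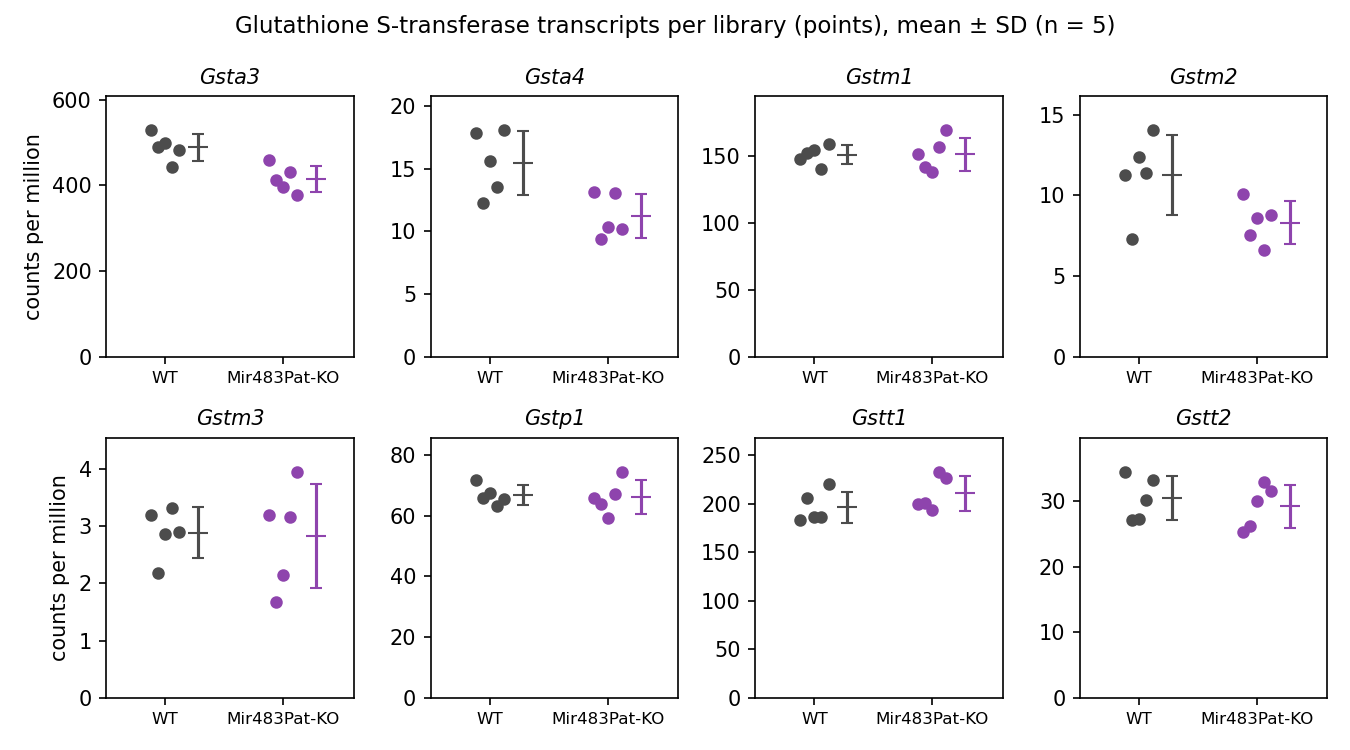
CPM of the 8 tested genes in each library, with WT in grey and Mir483Pat-KO in purple, and the mean ± SD (n = 5) beside the points, every axis starting at 0. Gsta4, which passed, and Gsta3 and Gstm2, which did not, have lower Mir483Pat-KO means with overlap between the groups, and the other 5 genes have group means that differ by less than the SD of the groups.

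Gsta4 encodes an alpha class enzyme known for conjugating hydroxyalkenals, toxic products of lipid peroxidation. WT libraries held 17.8, 12.2, 15.6, 13.6 and 18.0 CPM for replicates 1 to 5, and Mir483Pat-KO libraries 13.1, 9.36, 10.3, 13.1 and 10.2 CPM. Mir483Pat-KO replicates 2, 3 and 5 lay below all WT libraries, while replicates 1 and 4 lay above WT replicate 2. WT averaged 15.5 ± 2.57 CPM and Mir483Pat-KO 11.2 ± 1.76 CPM (SD, 5 fetuses each). The log2 fold change was -0.47 ± 0.129 (SE, edgeR quasi-likelihood test, adjusted p = 0.0473). Transcripts were thus 27.6% fewer per library. The adjusted p lay close to the threshold and depended on single libraries. It was 0.0794, 0.0754, 0.0541 and 0.109 without WT replicates 1, 3, 4 and 5, and 0.105, 0.0940, 0.0589 and 0.0852 without Mir483Pat-KO replicates 2, 3, 4 and 5. Without WT replicate 2 it was 0.0204, and without Mir483Pat-KO replicate 1 it was 0.0316. In the lower identification number range alone the log2 fold change was -0.40 with an adjusted p of 0.361.

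Gsta3, the abundant alpha class transferase of fetal liver here, is known in the mouse for detoxifying the reactive epoxide of aflatoxin. WT libraries held 529, 491, 500, 443 and 483 CPM for replicates 1 to 5. In Mir483Pat-KO the values were 459, 413, 397, 431 and 379 CPM. Replicate 1 was the only Mir483Pat-KO library above any WT library, and only WT replicate 4 lay below it. The means were 489.04 ± 31.1 CPM and 416 ± 30.8 CPM, and the log2 fold change, -0.23 ± 0.0713 (SE), did not pass (edgeR, adjusted p = 0.0651). It passed with DESeq2 (adjusted p = 0.0111), with GC content and length offsets (0.00796) and without Mir483Pat-KO replicate 1 (0.0347). The longest transcript of Gsta3 is 40.4% G and C, in the lowest GC decile of the genes tested, whose median log2 fold change was 0.20. In the lower range alone the log2 fold change was -0.17 (adjusted p = 0.430).

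Gstm2, a mu class enzyme, had 11.3, 7.29, 12.4, 11.4 and 14.0 CPM in WT replicates 1 to 5. Mir483Pat-KO replicates 1 to 5 had 10.1, 7.54, 8.58, 6.59 and 8.75 CPM. WT replicate 2 fell among the Mir483Pat-KO values, and the other 4 WT libraries lay above all of them. The log2 fold change, -0.44 ± 0.155 (SE), did not pass (edgeR, adjusted p = 0.107). Without WT replicate 2 it was -0.57 and passed (adjusted p = 0.0198). Without the filter on low counts, it also passed (adjusted p = 0.0355). In the lower range alone the log2 fold change was -0.27 (adjusted p = 0.605).

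**Figure D3:**
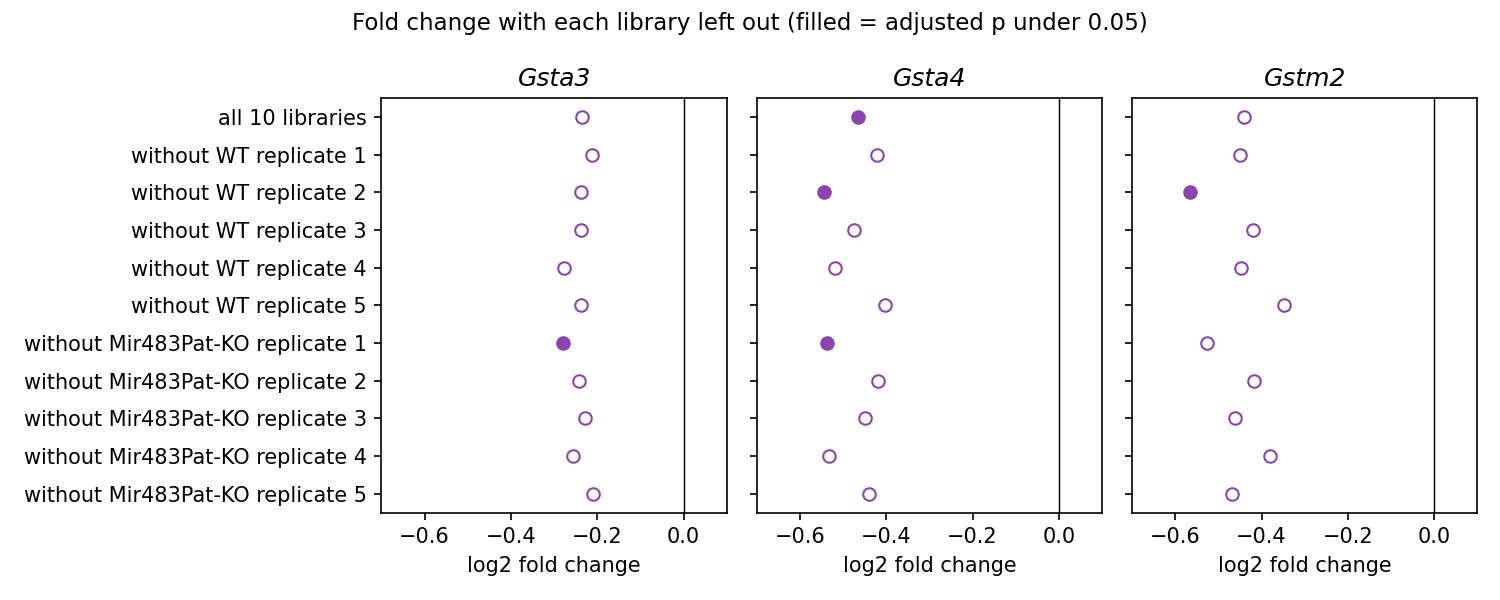
Log2 fold changes of Gsta3, Gsta4 and Gstm2 with all 10 libraries and with each library left out in turn, filled where the adjusted p was under 0.05. All values are negative, and Gsta4 passes with all libraries and in 2 of the 10 reduced sets, Gsta3 and Gstm2 in 1 each.

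Among the genes that did not pass, the other mu, pi and theta genes had small differences. Gstm1, which is the most abundant mu class gene here, had 151 ± 7.05 CPM in WT against 152 ± 12.4 CPM in Mir483Pat-KO, with a 95% interval of the log2 fold change from -0.14 to 0.15 (edgeR, adjusted p = 0.979). Its WT libraries ranged from 141 to 159 CPM and its Mir483Pat-KO libraries from 138 to 169 CPM. The sign of this small difference was negative under 7 of 19 alternatives. Gstm3, the least abundant gene tested, had 2.18 to 3.31 CPM in WT against 1.67 to 3.95 CPM in Mir483Pat-KO. Its interval, from -0.50 to 0.45, was too wide to detect a moderate change at this depth.

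Gstp1, the pi class gene, had 66.7 ± 3.24 CPM in WT against 66.0 ± 5.59 CPM in Mir483Pat-KO, with an interval from -0.16 to 0.13 on the log2 scale. Gstt1 encodes a theta class enzyme that acts on small halogenated compounds. Its WT values were 183, 206, 186, 187 and 220 CPM, and its Mir483Pat-KO values 199, 200.5, 193, 233 and 226 CPM. Replicates 4 and 5 of Mir483Pat-KO exceeded every WT library, and no Mir483Pat-KO library lay below all WT libraries. The log2 fold change was 0.10, with an interval from -0.06 to 0.26 (edgeR, adjusted p = 0.463). Gstt2, the other theta gene, had 30.5 ± 3.38 CPM in WT against 29.2 ± 3.34 CPM in Mir483Pat-KO (log2 fold change -0.06, interval -0.26 to 0.14).

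Gsta1 and Gsta2, alpha class genes that are known for strong induction by antioxidants in mouse liver, had few or no deposited counts. Gsta1 had 0 counts in all 10 libraries. Gsta2 had 1, 0, 7, 0 and 1 counts in WT and 0, 0, 0, 3 and 0 counts in Mir483Pat-KO. The near copies Gm3776 and Gm10639 had 0 counts and 0 to 4 counts per library, so reads of this group were not counted under another of these names. If reads with several matches were left out of the counting, reads from shared windows would be missing. How many read pairs that concerns was not counted. Unshared windows remained for Gsta2 (64.2% shared) and Gm10639 (48% shared), and few reads were counted for either. Gsta1 and Gm3776 shared 89.7% and 92.5% of theirs, so their expression cannot be judged from 0 counts. No fold change is given.

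Summed over the 10 genes, the level per length was 1163 ± 37.8 TPM in WT and 1148 ± 80.3 TPM in Mir483Pat-KO. The summed CPM was 963 ± 43.2 in WT against 895 ± 43.6 in Mir483Pat-KO, with Gsta3 holding most of the alpha class sum of 505 ± 32.6 and 427 ± 32.3 CPM. The theta class sum was 227 ± 16.6 CPM in WT against 240 ± 20.4 CPM in Mir483Pat-KO. In Mir483Pat-KO the share of Gsta3 in the summed TPM of the 10 genes was 23.9% ± 2.03, against 27.1% ± 1.38 in WT, while that of Gstt1 was 34.2% ± 1.38 against 30.9% ± 1.88. These sums and shares are descriptions and were not tested.

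Across libraries, deviations from the genotype mean on the log2 scale were correlated between genes. Gstm1 correlated with Gstp1 (Pearson r = 0.77) and with Gstt1 (0.75), and Gsta3 with Gsta4 (0.63), over the same 10 libraries, which also share depth and composition. The 5 tested genes with deviations most like those of Gsta4 were Mul1 (Pearson r = 0.92), Pemt (0.91), Cbr1 (0.90), Ces1d (0.90) and Cmtr1 (0.89). They were picked as the highest among all genes tested, over only 10 libraries. Whether values this high exceed what such a choice yields by chance was not tested. Pemt, which methylates phosphatidylethanolamine, was itself lower in Mir483Pat-KO at a log2 difference of -0.42 (edgeR, adjusted p = 0.00580).

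Cell type markers were summed beside these genes, over 9 lists. The summed hepatocyte markers (7 genes) spanned 218314 to 245699 CPM in WT against 196651 to 225051 CPM in Mir483Pat-KO, 10.4% lower on average (two-sided exact permutation test, p = 0.0238, adjusted over 9 lists 0.107). The erythroid sum (9 genes) spanned 15759 to 20373 CPM in WT against 18444 to 26369 CPM in Mir483Pat-KO, 33.5% higher (two-sided exact permutation test, p = 0.0238, adjusted 0.107). In the lower identification number range alone the differences were -7810 CPM (p = 0.400) and 1652 CPM (p = 0.333), each by the exact permutation test. The fetal hepatocyte sum (Afp, H19, Dlk1 and Igf2) stood the other way from the hepatocyte sum, with 46497 ± 3011 CPM in WT against 49172 ± 3141 CPM in Mir483Pat-KO, 5.75% higher (two-sided exact permutation test, p = 0.198, adjusted 0.357). Of these markers, Igf2 is the host gene of Mir483 and H19 lies in the same imprinted domain, so this sum also reads the targeted locus. For the other 6 lists the adjusted p from this exact test was 0.238 to 0.873. No marker of any list was at 0 in every library. In bulk liver, fewer cells of a type and less of an RNA per cell cannot be told apart, and the part of the cell mix in the Gsta4 and Gsta3 values was not tested.

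The 20 other transferases listed give the wider family, of which 19 were in the table and 14 were tested. None passed an adjusted p under 0.05 in edgeR, 7 differed at an unadjusted p under 0.05 (22.2% of all genes did), and 8 had negative and 6 positive fold changes, with a median log2 fold change of -0.03. In limma-voom and DESeq2 none passed either. The smallest p belonged to Mgst2, a membrane-bound transferase of leukotriene synthesis, with 17.2 to 20.2 CPM in WT against 18.96 to 27.1 CPM in Mir483Pat-KO (log2 fold change 0.29, standard error 0.0989, adjusted p = 0.0929). Without Mir483Pat-KO replicate 2 it passed (0.35, adjusted p = 0.0496). Mgst3 had 80.1 to 90.9 CPM in WT against 86.3 to 113 CPM in Mir483Pat-KO (log2 fold change 0.22, adjusted p = 0.108). In the lower range alone their log2 fold changes were 0.06 for Mgst2 (adjusted p = 0.850) and 0.08 for Mgst3 (adjusted p = 0.707). Gstp3, a pi class relative of Gstp1, had 94.2 to 135 CPM in WT against 87.7 to 107 CPM in Mir483Pat-KO (-0.23, adjusted p = 0.147). Mgst1, named after its values were seen, had the highest mean TPM of the transferases over the union of exons, 444 ± 38.6 in WT. Its WT range of 397.8 to 493 TPM overlapped that of Gstt1, 333 to 399.7 TPM.

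**Figure D4:**
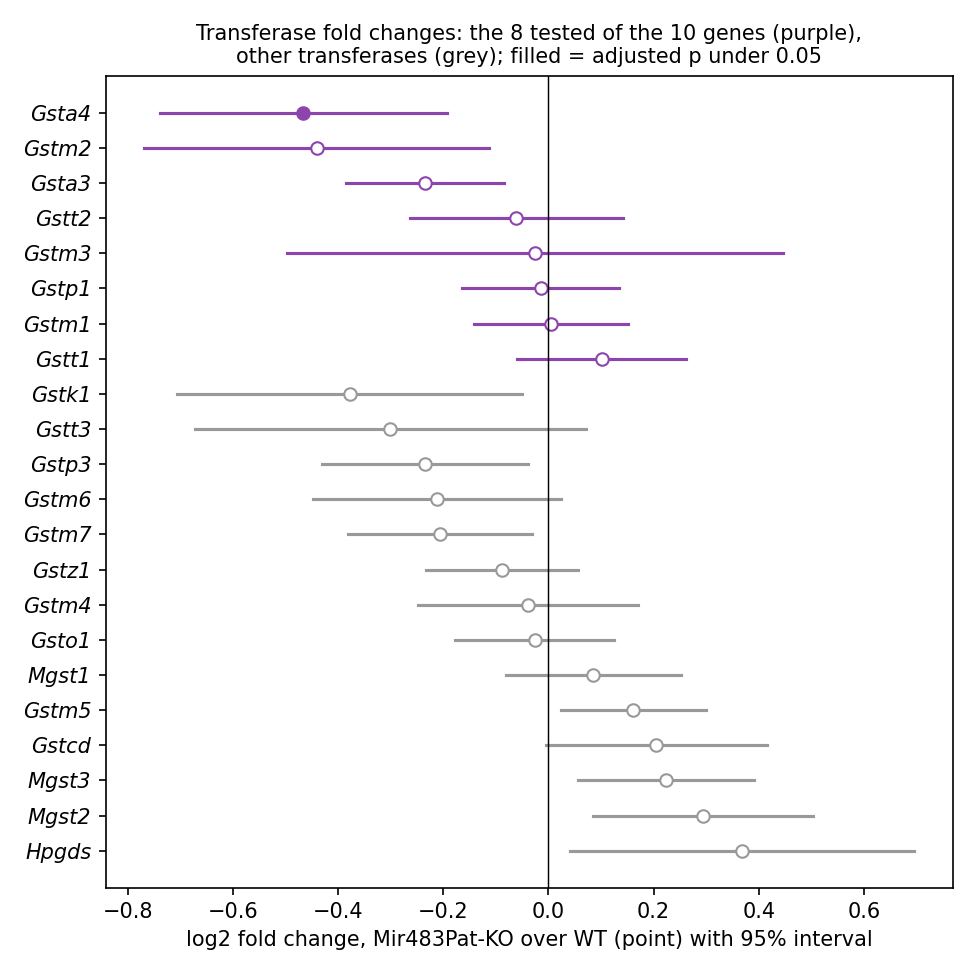
Log2 fold changes of Mir483Pat-KO over WT with 95% intervals for 8 tested genes of the set (purple) and 14 other transferases (grey), filled where the adjusted p was under 0.05. Gsta4 is the only filled point. The intervals of Gsta4, Gstm2, Gsta3, Gstk1, Gstp3 and Gstm7 lie below 0 and those of Gstm5, Mgst3, Mgst2 and Hpgds above 0.

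Glutathione itself is made, recycled and broken down by other enzymes, of which 16 of the 19 listed were tested. Oplah and Cbs were lower and Chac2 was higher in Mir483Pat-KO, 3 of 16 beside the 5.19% of all genes, with a median log2 fold change of -0.12. Oplah, which opens the ring of oxoproline in glutathione turnover, had 23.3, 28.7, 26.7, 22.2 and 26.4 CPM in WT against 20.8, 13.6, 21.0, 18.0 and 20.5 CPM in Mir483Pat-KO. The groups did not overlap (log2 fold change -0.44, standard error 0.114, adjusted p = 0.0374). Cbs, which leads homocysteine towards cysteine, had 175 to 188 CPM in WT against 136 to 163 CPM in Mir483Pat-KO, again without overlap (-0.24, adjusted p = 0.0416). Chac2, a glutathione-degrading cyclotransferase, had 23.7 to 32.4 CPM in WT against 32.1 to 41.6 CPM in Mir483Pat-KO (0.37, adjusted p = 0.0350). With GC content and length offsets none of these 3 passed, with log2 fold changes of 0.10 for Chac2 (adjusted p = 0.512), -0.30 for Oplah (0.153) and -0.21 for Cbs (0.0565). In the lower range alone none of the 3 passed either (adjusted p 0.189 to 0.310). Anpep, an aminopeptidase named after its values were seen, also did not overlap but did not pass (-0.23, adjusted p = 0.0506). Cbs did not pass without the low-count filter either (0.0645). Oplah no longer passed without WT replicates 2, 3 or 5 or Mir483Pat-KO replicates 2 or 4 (adjusted p 0.0567 to 0.0884). Cbs no longer passed without WT replicates 1, 3, 4 or 5 or Mir483Pat-KO replicates 2, 3 or 4 (0.0508 to 0.0935). For Chac2 the same held without WT replicates 3, 4 or 5 or Mir483Pat-KO replicates 2, 3 or 4 (0.0626 to 0.0986).

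Glutathione peroxidases use glutathione to reduce peroxides, and all 5 tested had positive fold changes, with a median log2 fold change of 0.20. Gpx3, the secreted form, was the 1 of 5 that passed, beside the 2.43% of all genes that passed as higher. Its WT libraries held 26.6, 31.1, 27.97, 24.7 and 27.9 CPM and its Mir483Pat-KO libraries 29.0, 34.9, 38.6, 36.5 and 38.1 CPM (log2 fold change 0.36, standard error 0.0894, adjusted p = 0.0311). Mir483Pat-KO replicate 1 fell within the WT range and the other 4 lay above it. The adjusted p was 0.0545 to 0.0862 without WT replicates 1, 3, 4 or 5 or Mir483Pat-KO replicates 2, 3, 4 or 5, and 0.0582 with the identification number range as a covariate. Gpx1, the abundant cytosolic form, had 712 to 875 CPM in WT against 796 to 1107 CPM in Mir483Pat-KO (0.26, adjusted p = 0.104), and passed with the replicate block (0.0470), with the offsets (0.0107) and without Mir483Pat-KO replicate 1 (0.0416). Gpx4, which protects membrane lipids, differed by 0.20 on the log2 scale (adjusted p = 0.155) and passed with the offsets (0.0203). In the lower range alone the log2 fold changes were 0.21 for Gpx3 (adjusted p = 0.446), 0.05 for Gpx1 (0.877) and 0.09 for Gpx4 (0.698). The summed erythroid markers were 33.5% higher in Mir483Pat-KO, and their part in these differences was not tested.

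Of the NRF2 target and regulator list, 26 of 28 genes were tested. Only Cbr1 passed, beside 5.19% of all genes, and 12 fold changes were negative and 14 positive, with a median of 0.04. Cbr1, a carbonyl reductase, was called by the fold rule as well. Its libraries held 55.1, 37.95, 46.4, 44.4 and 49.1 CPM in WT against 36.1, 26.97, 28.2, 31.5 and 30.1 CPM in Mir483Pat-KO, without overlap (log2 fold change -0.61, standard error 0.100, adjusted p = 0.00401). It passed with each library left out, but not in the lower range alone (-0.54, adjusted p = 0.172). Ugdh, which makes UDP-glucuronate, had 33.7 to 39.7 CPM in WT against 38.2 to 50.6 CPM in Mir483Pat-KO (0.29, adjusted p = 0.0507). It passed in DESeq2 (adjusted p = 0.0261), without the filter (0.0338), with at least 10 counts in every library (0.0473), with the replicate block (0.0230), with the range as a covariate (0.0221) and without WT replicate 2 (0.0487) or Mir483Pat-KO replicate 3 (0.0305). Ugdh did not pass with GC content and length offsets (log2 fold change 0.19, adjusted p = 0.226) or in the lower range alone (0.43, adjusted p = 0.112). Abcc2, an exporter of glutathione conjugates, had 275 to 331 CPM in WT against 197 to 305 CPM in Mir483Pat-KO (-0.35, adjusted p = 0.0645). It passed in DESeq2 (adjusted p = 0.0248), limma-voom (0.0497), without the filter (0.00503), with the replicate block (0.0263), with the offsets (0.0173) and without Mir483Pat-KO replicate 1 (0.00582). Its log2 fold change was -0.23 with the range as a covariate (adjusted p = 0.0782) and -0.12 in the lower range alone (0.598). NRF2 itself (Nfe2l2), named outside the naming rule for its role, had 54.05 to 59.0 CPM in WT against 48.5 to 54.5 CPM in Mir483Pat-KO (-0.10, adjusted p = 0.399). This list shares 4 genes with the synthesis and turnover list.

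Among xenobiotic receptors and their partners, 7 of 8 genes were tested and Nr1i3, which encodes CAR, was lower, 1 of 7 beside the 5.19% of all genes that passed. The groups did not overlap for 2 of 7, both lower, beside 3.26% of all genes. WT libraries held 41.5, 32.2, 39.8, 33.7 and 36.6 CPM, and Mir483Pat-KO libraries 22.9, 14.4, 29.0, 17.3 and 16.9 CPM. Every Mir483Pat-KO library lay below every WT library (log2 fold change -0.87, standard error 0.148, adjusted p = 0.00455), and the gene was called by the fold rule. In the lower range alone the log2 fold change was -0.98 with an adjusted p of 0.0527. Hnf4a, a hepatocyte transcription factor, did not overlap either, with 355 to 407 CPM in WT against 307 to 343 CPM in Mir483Pat-KO, but did not pass (-0.24, adjusted p = 0.0540). Hnf4a did pass in DESeq2 (adjusted p = 0.00511), limma-voom (0.0464), with the covariate (0.0421) and without replicate 1 of WT (0.0461) or of Mir483Pat-KO (0.0451). Rxra, the partner of CAR, differed by -0.27 on the log2 scale (adjusted p = 0.0579), and passed in DESeq2 (0.0156), without the filter (0.0361), with the replicate block (0.0323), with the covariate (0.0330) and without WT replicate 1 (0.0286). With the offsets neither passed, at -0.16 for Hnf4a (adjusted p = 0.205) and -0.15 for Rxra (0.307). The same held in the lower range alone, at -0.21 for Hnf4a (0.336) and -0.34 for Rxra (0.208). Of the 7 genes, 5 had negative fold changes, and the list median was -0.24. All adjusted p-values in this text for single genes come from the edgeR quasi-likelihood test unless another tool is named.

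**Figure D5:**
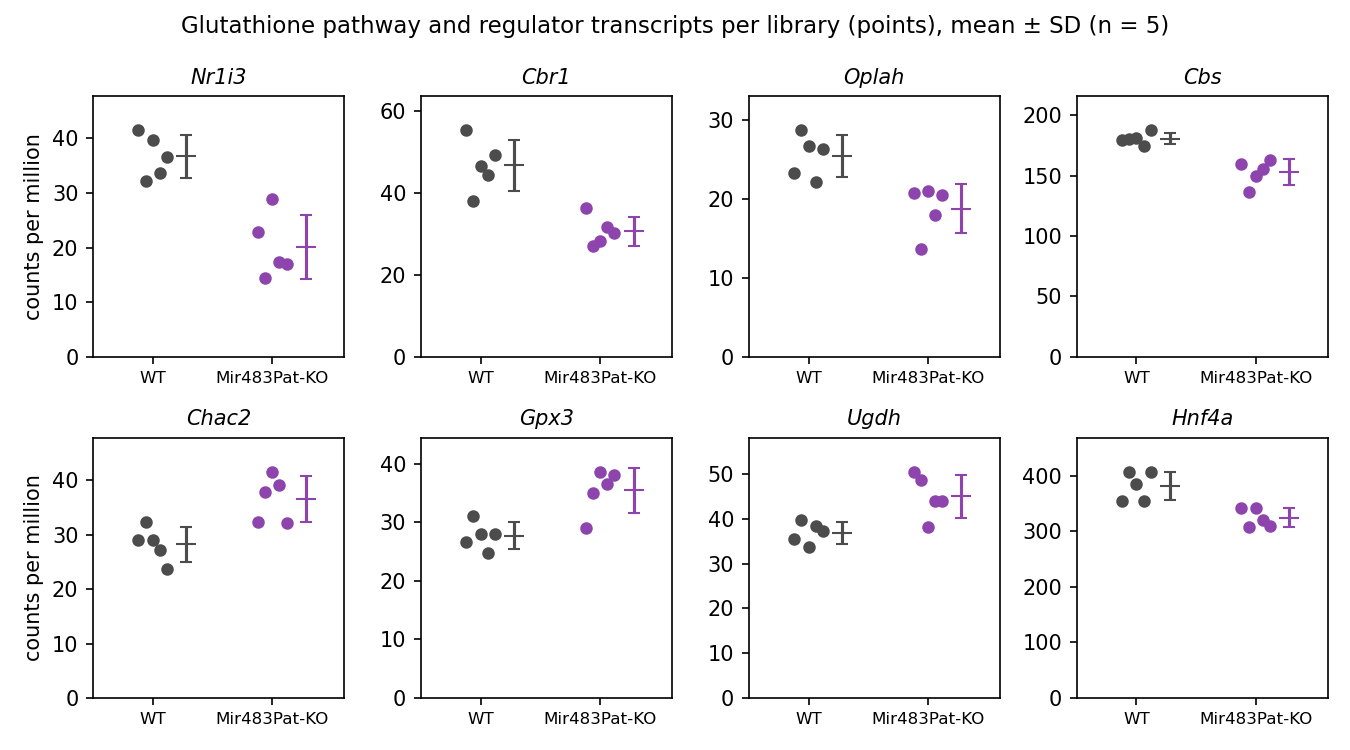
CPM of 8 genes of glutathione metabolism and its regulators in each library, with WT in grey, Mir483Pat-KO in purple and the mean ± SD (n = 5) beside the points, every axis starting at 0. The groups do not overlap for Nr1i3, Cbr1, Oplah, Cbs and Hnf4a, and they overlap for Chac2, Gpx3 and Ugdh.

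Promoters were searched for the core of the antioxidant response element, the site to which NRF2 binds, spelled TGACNNNGC and read on both strands from 250 bases before to 50 bases after each start. The windows came from RefSeq (GRCm38.p6), which gave an entry for 8 of the 10 genes (not Gsta4 and Gstt2). Only Gsta3 held the letters, 121 bases before its start, and 12.4% of all 32851 promoter windows held them. The stretch around them is shown for its place in the most abundant alpha gene, chr1:21240438-21240497 on the plus strand, with the matching letters in capitals.
Gsta3 promoter: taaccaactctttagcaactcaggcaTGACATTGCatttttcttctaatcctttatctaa

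A match of these letters is a description and shows no binding. Of the other transferases, Gstm5, Gstm7 and Mgst1, named for this match, held the letters in a promoter window. Their log2 fold changes were 0.16 (Gstm5, adjusted p = 0.159), -0.21 (Gstm7, adjusted p = 0.155) and 0.09 (Mgst1, adjusted p = 0.561). None of them passed, nor did Gsta3, so their directions are not firm. The part of the motif in these values was not tested.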

How the data were processed

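PolyA RNA of 10 fetal livers was measured by stranded paired-end RNA-seq, with 50-base reads. The authors aligned the reads to GRCm38 with STAR and deposited the raw read counts of each Ensembl gene, not normalized. How strand and reads with several matches were handled is not stated. Groups came from the sample labels.

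The test was run in edgeR 4.0.16 under R 4.3.3: filterByExpr, TMM scaling, the quasi-likelihood F-test without covariates, and Benjamini-Hochberg adjustment over 14098 genes. A gene passed at an adjusted p under 0.05 and was called if its fold change also exceeded 1.5. CPM used the scaled library sizes, and TPM the union of annotated exons. The common biological coefficient of variation was 0.111. Counts of 3 set the floor, and floors cover counting error only. No 2 libraries of a group agreed within sampling noise (20 pairs, chi-square over degrees of freedom at least 4.86). Marker sums were compared by two-sided exact permutation tests, whose smallest possible p is 0.00794 with all 10 libraries and larger with fewer.

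The 10 genes and the lists were chosen with earlier results of these data known. Named genes were all 10, the genes of other lists that passed or had up to 3 of the smallest p-values, paralogs sharing sequence, and the 5 genes most like Gsta4, which had the smallest p of the 10. Anpep, Mgst1, Gstm5, Gstm7 and Nfe2l2 were named outside this rule, after their values were seen. Shared windows were exact 50-base matches between GENCODE transcripts. Coding sequences were aligned with Biopython 1.88.

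Alternatives were RLE scaling, DESeq2 1.42.0, limma-voom (limma 3.58.1), no filter, 10 counts in every library, a replicate block, the identification number range as covariate or its lower part alone, GC content and length offsets (mgcv 1.9.3), and each library left out. For TPM, the longest transcript replaced the union of exons. The alternatives for marker sums and for the xenobiotic receptor list were added after the data were seen. The procedure was tested on simulated data. Figures used Python 3.11.15 and matplotlib 3.10.9.

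Replicate numbers are shared by the groups, and deviations of same-numbered libraries correlated between -0.04 and 0.25 across genes, so libraries were treated as unpaired. Nothing in the labels says that the 10 libraries came from separate litters, and p-values measure the spread between these fetuses.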

Additional observations from a re-analysis of the deposited data

Results flagged for a closer look

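Only Gsta2, which was too low to test, had a library far from the rest of its group. Of 52 groups of 5 libraries examined (the 10 genes, the named genes of other lists and the sums over the 10 genes), 2 had a gap to the nearest library that exceeded 0.71 of the whole range, the 95% critical value of Dixon, where chance gives about 1 in 20. In WT, Gsta2 reached 0.501 CPM in replicate 3 (7 counts), with the next library at 0.0888 CPM. In Mir483Pat-KO it reached 0.271 CPM in replicate 4 (3 counts), the level of the floor in that library, with 0 in the other 4.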

How the results depend on the processing

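The number of the 10 genes passing, 1 with all libraries, was 2 with DESeq2, without the low-count filter and with GC content and length offsets, and 0 in the lower identification number range alone, where 23 genes of all passed. Over all genes, 731 of 14098 passed, against 1134 of 28422 with DESeq2, 1258 of 28428 without the filter and 1189 of 14098 with the range as covariate. DESeq2 and the fit without the filter took in more genes, so a higher count there is not a higher share. With 1 library left out, between 0 and 2 of the 10 genes and between 279 and 863 of all genes passed. No alternative called a gene of the 10 by the fold rule.

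Of the other lists, the synthesis and turnover list (3 passing) gave 5 with DESeq2, 0 in the lower range and with the offsets, and 0 to 4 with a library left out. The peroxidase list (1) gave 0 with the range as covariate and in the lower range, 3 with the offsets, and 0 to 2 with a library left out. The NRF2 list (1) gave 3 with DESeq2 and without the filter, 2 with limma-voom, with at least 10 counts in every library, with the covariate and with the offsets, 0 in the lower range, and 1 to 3 with a library left out. The receptor list (1) gave 4 with DESeq2 and with the covariate, 2 with limma-voom, 3 without the filter, 0 in the lower range, and 1 to 4 with a library left out. The other transferases (0) gave 0 to 1 with a library left out.

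Signs turned only for small differences. Gstm1 was -0.029 with the covariate and -0.024 in the lower range, and -0.046 to 0.025 with a library left out. Gstm3 was 0.013 with the offsets and -0.20 to 0.10 with a library left out, and Gstp1 was 0.060 and -0.070 to 0.012. Marker sums changed sign for cholangiocytes (0.932 CPM in the lower range, -8.38 to 5.16 with a library left out), megakaryocytes (8.19 CPM, and -28.6 to 9.83) and macrophages (-28.3 to 16.6). The endothelial difference was -45.2 to -24.2 CPM and the stellate difference -233 to -116 CPM with a library left out. The hepatocyte and erythroid differences were -7810 and 1652 CPM in the lower range. The causes were not tested.

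With the replicate block, 2 of the 10 genes passed (Gsta4 and Gsta3) and 1338 of all genes, as did 5 of the synthesis list, 2 peroxidases, 4 of the NRF2 list and 3 receptors. Same-numbered libraries correlated over 0.1 in 2 of 5 pairs, and the best match was the own number in 3 of 5, a hint from the data and not from the design.

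Shared sequence limits Gsta1, Gsta2 and Gstp1 most and the mu genes in part, and Gstm3 had low counts and a wide interval. Each group held 5 libraries, and the effect of group size was not tested for these genes.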
